A study of Mus musculus with 12 samples.

Results

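The erythroid transcription factors described here are Gata1, Klf1, Tal1, Nfe2, Bcl11a, Sox6, Gfi1b, Zfpm1, Lmo2 and Lyl1. They were taken by symbol from single-cell count matrices of mouse liver, and all 10 were present among the 22519 genes that the matrices of both stages listed. Livers came from late embryos (E16.5, in days after mating) and from pups on day 3 after birth (P3), in animals labelled Jag1+/+, Jag1Ndr/+ and Jag1Ndr/Ndr, that is, with no copy, a single copy or both copies of the Nodder allele of Jag1, a missense change in a ligand of Notch receptors. The labels list 12 samples, in pairs per genotype and stage, all from crosses of heterozygotes. The allele is carried in the germline by every cell, so blood and liver cells have the same genotype. Homozygous pups at P3 were picked by jaundice, per the labels' protocols, and TrypLE was added to the digestion at E16.5 only.

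Some of the 12 matrices repeat each other. The E16.5 matrix of Jag1+/+ replicate 2 is identical, in all 23166 barcodes and their counts, to that of Jag1Ndr/+ replicate 2, and the pair was counted once, as the shared library. Together with both Jag1Ndr/Ndr replicates and with replicate 1 of Jag1+/+ and of Jag1Ndr/+, this gave 5 libraries at E16.5. At P3, 6 pairs of matrices shared 53.4% to 100.0% of the smaller matrix's barcodes, 5 of the pairs across genotype labels. From these, 4 libraries without common cells were taken. Library A is the matrix labelled Jag1+/+ replicate 1 and library B the one labelled Jag1+/+ replicate 2. Both also occur under a homozygous label, so their genotype is unclear. Library C holds the 15145 barcodes of Jag1Ndr/Ndr replicate 1 that are absent from library A, and library D is Jag1Ndr/+ replicate 1. The labels do not say whether samples of a genotype were separate litters, so p-values measure only the spread between these libraries.

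Red cell formation runs on a small set of DNA-binding proteins. GATA1, a zinc finger protein that binds GATA letters, works with its cofactor ZFPM1 (also called FOG1) and with a complex in which TAL1, a basic helix-loop-helix protein, pairs with an E protein and is held to GATA1 by the bridging protein LMO2. LYL1 is the closest relative of TAL1. KLF1 binds CACCC letters in the adult beta-globin promoter and in many other red cell genes, and NFE2 binds the globin control region together with a small MAF protein. GFI1B is a repressor that brings the histone demethylase KDM1A to its targets, and BCL11A and SOX6 repress embryonic globin genes. Several of them have a second site of action: GATA1, ZFPM1, GFI1B, TAL1 and NFE2 are needed for megakaryocytes and platelets, and BCL11A for B cells. The fetal liver is the main site of red cell formation before birth, and it gives way to bone marrow and spleen around birth.

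The members lie on 7 chromosomes (GENCODE M21, GRCm38). Gata1 (ENSMUSG00000031162) lies at chrX:7959260-7978071 on the minus strand and Klf1 (ENSMUSG00000054191) at chr8:84901928-84905291 on the plus strand. On the same chromosome and strand are Zfpm1 (ENSMUSG00000049577) at chr8:122282141-122337251 and Lyl1 (ENSMUSG00000034041) at chr8:84701457-84704715. Chromosome 2 holds Gfi1b (ENSMUSG00000026815) at chr2:28609450-28621982 on the minus strand and Lmo2 (ENSMUSG00000032698) at chr2:103957986-103981878 on the plus strand. Tal1 (ENSMUSG00000028717) lies at chr4:115056426-115071755 on the plus strand, Nfe2 (ENSMUSG00000058794) at chr15:103248212-103258403 on the minus strand, Bcl11a (ENSMUSG00000000861) at chr11:24078056-24174123 on the plus strand and Sox6 (ENSMUSG00000051910) at chr7:115470872-116038796 on the minus strand. All are annotated as protein coding.

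The promoters of Klf1, Gata1 and Gfi1b are shown because these 3 genes part company in the results. As a share of the RNA outside globin, Klf1 and Gata1 rose together in P3 cells up to a globin share of 60%, and Gfi1b did not. Their UMIs per cell fell over the same cells, as given below. Each line gives 150 bases of RefSeq sequence (GRCm38.p6), 5′ to 3′ on the gene's strand. They end at the base before the RefSeq start site for Gata1 and Gfi1b, and for Klf1 at the first base of the GENCODE gene, upstream of the RefSeq start. The windows are chr8:84901779-84901928 (plus), chrX:7967911-7968060 (minus) and chr2:28621983-28622132 (minus).
Klf1: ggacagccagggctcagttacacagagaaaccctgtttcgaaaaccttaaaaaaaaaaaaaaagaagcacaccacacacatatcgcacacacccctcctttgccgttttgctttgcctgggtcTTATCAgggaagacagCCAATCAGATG
Gata1: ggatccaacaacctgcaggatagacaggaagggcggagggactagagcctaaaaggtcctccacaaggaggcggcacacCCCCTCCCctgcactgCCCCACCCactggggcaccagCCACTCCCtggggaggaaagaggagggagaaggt
Gfi1b: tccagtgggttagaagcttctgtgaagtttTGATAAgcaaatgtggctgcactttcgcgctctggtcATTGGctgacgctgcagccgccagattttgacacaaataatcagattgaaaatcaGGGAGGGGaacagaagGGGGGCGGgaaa
Capitals mark matches to 5 motifs searched on both strands: GATA (the letters GATA with A or T before them and A or G after), CACCC (searched as CCNCNCCC), the E-box CAGNTG, the box named CCAAT after its letters, and the NF-E2 motif TGANTCA. Where matches overlapped, each was counted. The Klf1 window holds a GATA match on the reverse strand, then a CCAAT and an E-box match side by side. The Gata1 window holds 3 CACCC matches and none of the others. Gfi1b has a GATA match and, on the reverse strand, a CCAAT match and 2 CACCC matches. Among 32851 mouse promoters of 250 bases, 26.5% hold a GATA match, 45.9% CACCC, 44.8% an E-box, 33.9% CCAAT and 6.75% NF-E2, so such matches are common, and they describe letters only. The 250 bases before the start hold 8 CACCC matches each for Lyl1 and Bcl11a, and 4 each for Zfpm1 and the second of the 2 Tal1 starts.

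The 9 libraries held 75745209 to 258642858 UMIs (unique molecular identifiers, each counting 1 captured transcript). Barcodes were used from 1000 UMIs upwards if mitochondrial UMIs made up no more than 15%, doublets were removed, and cells were clustered without the 10 members. Clusters were named from other markers, so the levels below played no part in the names, which are not the authors' and may differ from theirs. Erythroid-like cells numbered 61278 at E16.5 (10456 to 14933 per library) and 30202 at P3 (6416 to 8984). The adult globin transcripts Hba-a1, Hba-a2, Hbb-bs and Hbb-bt made up a median of 47.2% to 81.1% of a cell's UMIs in this class at E16.5, and 64.6% to 84.2% of one at P3. Globin RNA also reached other cells at E16.5, where the median share in the other classes was 5.90% to 51.0%. At P3 it was 0.256% to 1.76% outside the erythroid-like, mesenchymal-like (41.5% to 63.9%) and hepatocyte-like (0.889% to 54.2%) cells. These medians over whole classes cover some globin-rich clusters: a macrophage-like cluster of 1512 of the 4657 macrophage-like cells had a median of 68.4%, and a B-like cluster of 893 cells one of 46.0%. The late erythroid-like clusters at E16.5 differed between libraries: a single cluster took 57.9% of the erythroid-like cells of Jag1Ndr/Ndr replicate 1, and another 41.9% of those of Jag1+/+ replicate 1. Jag1 itself was near 0 in erythroid-like cells, at no more than 0.213 CPM (a gene's UMI count scaled to a common library total) in any library.

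Levels across cell classes were read first, in CPM of all UMIs of a class and library. Klf1 and Sox6 ranked first in erythroid-like cells at both stages. Gata1 and Gfi1b ranked first in megakaryocyte-like cells at both stages, also with the adult globin genes left out of the totals (globin-free CPM). Nfe2, Zfpm1 and Tal1 did so in CPM of all UMIs at both stages and Lmo2 at E16.5, but in globin-free CPM erythroid-like cells ranked first for Tal1 at both stages, for Nfe2 and Lmo2 at E16.5 and for Zfpm1 at P3. Bcl11a ranked first in B-like cells at E16.5 on both scales, and Lyl1 in monocyte-like cells in CPM of all UMIs and in erythroid-like cells in globin-free CPM. CPM values are compared between classes for 1 gene, never between genes.

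Klf1 measured 142 CPM in Jag1+/+ replicate 1, 190 in the shared library, 127 in Jag1Ndr/+ replicate 1, 106 in Jag1Ndr/Ndr replicate 1 and 132 in Jag1Ndr/Ndr replicate 2, in erythroid-like cells at E16.5. In P3 libraries A to D it measured 148, 221, 262 and 285 CPM. The shared library was highest at E16.5 and library A lowest at P3. The next class at E16.5, macrophage-like cells, averaged 126 ± 14.6 CPM (SD, n = 5) against 140 ± 31.2 in erythroid-like cells, and the ranges overlapped. In globin-free CPM these classes were apart, at 182 ± 20.7 (153 to 202.8) and 342 ± 14.7 (318.9 to 358.7). At P3 the mean was 229 ± 59.9 CPM (SD, n = 4) in erythroid-like cells and 99.9 ± 53.3 in mesenchymal-like cells, the next class, whose highest library, at 149, just reached the lowest erythroid-like value. Those mesenchymal-like cells were also rich in globin RNA, as given above, while neutrophil-like cells averaged 5.59 ± 3.09 CPM.

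Sox6, a repressor of embryonic globin genes, was the other member that ranked first in erythroid-like cells at both stages. Its E16.5 level was 91.9 CPM in Jag1+/+ replicate 1, 208 in the shared library, 63.3 in Jag1Ndr/+ replicate 1, and 60.6 and 160 in Jag1Ndr/Ndr replicates 1 and 2. The shared library and Jag1Ndr/Ndr replicate 2 stood well above the other three. In P3 libraries A to D it was 77.9, 161, 166 and 210 CPM, with library A low. The next classes, macrophage-like cells at E16.5 (113 ± 51.6 CPM against 117 ± 64.7) and mesenchymal-like cells at P3 (119 ± 45.5 against a mean of 154), overlapped with them.

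Gata1 was higher in megakaryocyte-like than in erythroid-like cells. At E16.5 it measured 118, 172, 105, 67.8 and 127 CPM in the megakaryocyte-like cells of the E16.5 libraries in the order just given, against 47.9, 79.9, 37.4, 33.3 and 51.1 CPM in their erythroid-like cells. It was higher in megakaryocyte-like cells in each of the 5 libraries, although the class ranges overlapped. At P3 it was 245, 163, 333 and 215 CPM in megakaryocyte-like cells of libraries A to D and 77.7, 92.9, 141 and 110 CPM in erythroid-like cells, and these ranges did not overlap. In globin-free CPM the gap was smaller, at 151 ± 24.5 against 119 ± 16.45 at E16.5 (SD, n = 5) and 251 ± 74.5 against 175 ± 38.4 at P3 (SD, n = 4), with overlap at both stages. Gfi1b showed the same order in CPM of all UMIs, with ranges apart at both stages. It averaged 63.4 ± 14.9 CPM in megakaryocyte-like and 23.9 ± 6.97 CPM in erythroid-like cells at E16.5 (SD, n = 5), and 126 ± 19.4 and 74.2 ± 12.7 CPM at P3 (SD, n = 4). In globin-free CPM it averaged 82.6 ± 7.77 and 57.9 ± 8.27 at E16.5, still apart, and 132 ± 20.2 and 123 ± 13.9 at P3, with overlap. Megakaryocyte-like cells were few, 126 to 170 per library at E16.5 and 57 to 121 at P3.

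Zfpm1, the GATA1 cofactor, averaged 371 ± 34.3 CPM in megakaryocyte-like and 254 ± 71.5 in erythroid-like cells at P3 (SD, n = 4), with ranges apart, and 211 ± 49.5 and 97.7 ± 30.3 at E16.5 (SD, n = 5), with overlap. In globin-free CPM its order turned at P3, at 389 ± 35.8 in megakaryocyte-like and 415 ± 84.5 in erythroid-like cells, and the E16.5 means were 274 and 236, with overlap at both stages. Nfe2 averaged 293 ± 75.6 CPM in megakaryocyte-like cells and 94.2 ± 26.6 in erythroid-like cells at P3, again apart, as were the globin-free values of 307 ± 79.2 and 155 ± 34.9. At E16.5 its globin-free order was the opposite, at 169 ± 15.9 and 233 ± 43.4. The pair of Tal1 and Lmo2 separated these classes less: Tal1 averaged 168 ± 16.3 and 117 ± 37.8 CPM at P3 and Lmo2 139 ± 8.34 and 182 ± 39.8, in megakaryocyte-like and erythroid-like cells in that order, and both pairs of ranges overlapped. Tal1 turned to 176 ± 16.48 and 192 ± 50.02 in globin-free CPM.

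Over whole classes, Bcl11a ranked first outside the erythroid-like and megakaryocyte-like cells at both stages. It averaged 217 ± 71.8 CPM in B-like, 204 ± 40.3 in basophil and mast-like and 50.9 ± 21.2 in erythroid-like cells at E16.5 (SD, n = 5), and the erythroid-like range lay below that of the next class above it. In globin-free CPM these means were 277, 232 and 121. At P3 it averaged 185 ± 10.3 CPM in a cluster that stayed unnamed, 183 ± 34.0 CPM in B-like and 89.2 ± 4.89 in erythroid-like cells (SD, n = 4), and in globin-free CPM 191, 201 and 150. These erythroid-like means cover cells of unlike Bcl11a level. In erythroid-like cells low in globin it averaged 297 globin-free CPM at E16.5 (from 2% to 10% globin) and 211 at P3 (under 2%). Lyl1 averaged 54.1 ± 4.44 CPM in monocyte-like and 27.0 in erythroid-like cells at E16.5, but 62.1 ± 5.64 and 65.3 ± 6.39 in globin-free CPM, where the ranges overlapped and the order turned. At P3 it was highest in megakaryocyte-like cells on both scales, at 95.9 ± 13.8 CPM against 43.0 ± 9.52 in erythroid-like cells and at 100.5 ± 13.8 against 70.8 ± 9.24 in globin-free CPM.

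**Figure D1:**
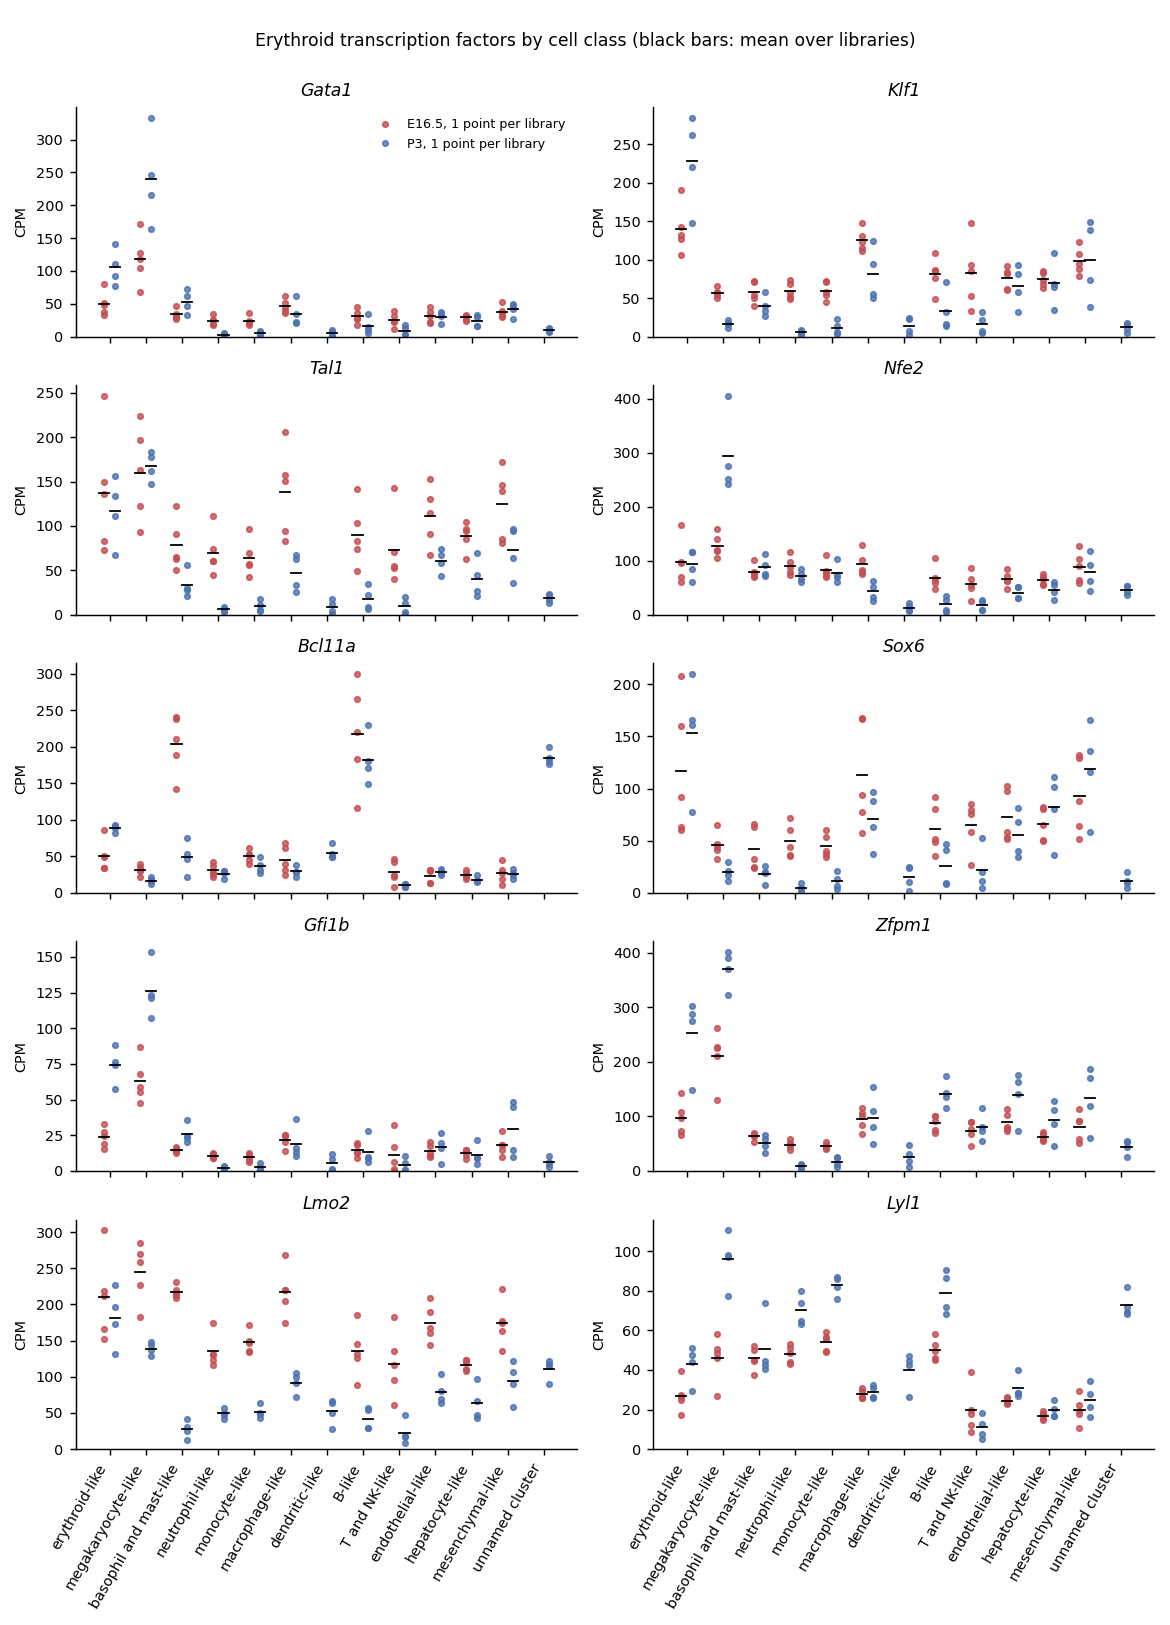
Level of each member by cell class, in CPM of all UMIs on a linear axis from 0, with 1 red point per E16.5 library, 1 blue point per P3 library and a black bar at the mean. The means of Klf1 and Sox6 are highest in erythroid-like cells and those of Gata1, Gfi1b and Zfpm1 in megakaryocyte-like cells (for Zfpm1 at P3, erythroid-like cells in globin-free CPM). The mean of Bcl11a is higher in B-like cells than in erythroid-like cells as a whole.

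The number of members that ranked first in erythroid-like cells was thus 6 at E16.5 in globin-free CPM in place of 2, and 5 at P3 in place of 3. A coarser clustering gave 1 at E16.5, Sox6, as Klf1 then ranked first in cells that stayed unnamed.

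The share of cells with a UMI of a member was set beside that in classes that should lack it. After each cell was thinned to 1000 UMIs, Klf1 was found in 12.8% of erythroid-like and in 11.5% of hepatocyte-like cells at E16.5. These shares were close, although hepatocyte-like cells should lack the gene (median depths 4992 to 9398 and 2911 to 5438 UMIs per cell). The thinned UMIs included globin, at a median share of 47.2% to 81.1% and 23.05% to 44.3%, so the shares are not on the same footing. In globin-free CPM, Klf1 was 319 to 359 in erythroid-like and 74.9 to 108 in hepatocyte-like cells, with no overlap. At P3 the share was 15.6% of erythroid-like and 0.403% of neutrophil-like cells (median depths 2750 to 5618 and 4284 to 9250 UMIs). Before thinning, the P3 shares were 33.2% to 50.3% and 2.07% to 3.38%. Gata1 was found in 7.47% and 0.335% of these P3 cells after thinning, Sox6 in 14.9% and 0.379%, and Zfpm1 in 17.3% and 0.705%. These 4 members were thus found far more often in erythroid-like than in neutrophil-like cells at P3. Nfe2 (9.70% and 8.39%) and Bcl11a (3.52% and 2.13%) were closer, and Lyl1 had the opposite order (3.32% and 6.44%). Globin filled more of the thinned UMIs in these erythroid-like than neutrophil-like cells (median share 64.6% to 84.2% and 0.279% to 0.497%), which lowers the erythroid-like shares. In megakaryocyte-like cells at P3, Zfpm1 was found in 24.0%, Nfe2 in 16.6% and Gata1 in 13.3%.

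Because RNA from one source keeps its genes in a fixed ratio, each member was also divided by Klf1 in every class and then by the same ratio in erythroid-like cells. A value of 1 means that the class carried the member and Klf1 in the erythroid-like proportion. In macrophage-like, hepatocyte-like, mesenchymal-like and T and NK-like cells at E16.5, most of these values lay between 0.88 and 1.3. Megakaryocyte-like cells at E16.5 departed from 1, with 6.71 for Gfi1b, 5.90 for Gata1, 5.40 for Zfpm1, 4.21 for Lyl1, 3.32 for Nfe2, 2.96 for Tal1 and 2.89 for Lmo2, but 1.57 for Bcl11a and 1.09 for Sox6. B-like cells departed mainly for Bcl11a (7.88) and Lyl1 (3.57), and basophil and mast-like cells for Bcl11a (10.6), Lyl1 (4.52), Lmo2 (2.67) and Nfe2 (2.17). Monocyte-like cells had 4.90 for Lyl1, 2.48 for Bcl11a and 2.06 for Nfe2, and neutrophil-like cells 4.31 for Lyl1 and 2.30 for Nfe2. Endothelial-like cells had 1.74 for Lyl1, 1.72 for Zfpm1, 1.58 for Tal1 and 1.55 for Lmo2, and from 0.897 (Bcl11a) to 1.30 (Nfe2) for the rest.

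The same ratios were wider at P3, where Klf1 outside erythroid-like cells was low. In megakaryocyte-like cells they were 44.5 for Nfe2, 32.1 for Lyl1, 31.8 for Gata1, 23.7 for Gfi1b, 21.6 for Tal1, 21.3 for Zfpm1 and 11.0 for Lmo2. Neutrophil-like cells had 82.0 for Lyl1 and 39.0 for Nfe2, monocyte-like cells 59.2 and 24.7, and B-like cells 19.1 for Bcl11a, below the 42.1 of the unnamed cluster. The highest Zfpm1 value outside megakaryocyte-like cells named here was 6.52, in T and NK-like cells. The value of Sox6 stayed between 0.69 and 2.03 in every class at P3.

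**Figure D2:**
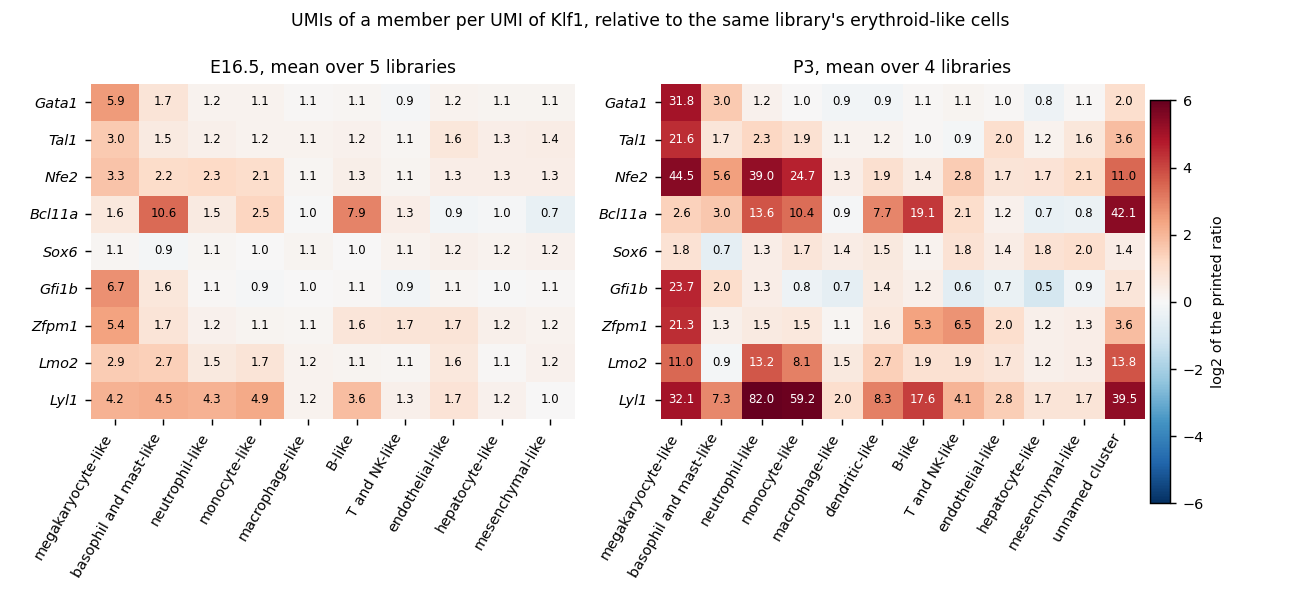
UMIs of each member (rows) per UMI of Klf1 in each class (columns), divided by the same ratio in the erythroid-like cells of the same library and averaged over libraries, with the ratio printed and its log2 as colour. At P3, Sox6 stays between 0.69 and 2.03 in all classes, while Nfe2, Lyl1 and Gata1 reach 44.5, 32.1 and 31.8 in megakaryocyte-like cells.

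Over the means of 11 classes at E16.5, the genes whose level followed each member most closely were listed, as a description of classes that share libraries and free RNA. Gata1 and Gfi1b had the same closest gene, Mfsd2b (Pearson r = 0.987 and 0.984, n = 11 classes). Klf1 was closest to Rhag, a subunit of the Rh complex of the red cell membrane (r = 0.985), and to the heme synthesis gene Cpox (r = 0.978). Sox6 was closest to Ank1, which encodes the red cell ankyrin (r = 0.995), to Ppox (r = 0.995) and to the anion exchanger gene Slc4a1 (r = 0.994). Tal1 was closest to Gypc (r = 0.966) and Zfpm1 to Asb1 (r = 0.972). Bcl11a was closest to Rnase12 (r = 0.940) and to Ly6d (r = 0.924), a surface antigen of early B cells, and Lyl1 to Btk (r = 0.894), a kinase of B and myeloid cells. Over 12 classes at P3 the closest genes were mostly others: Nt5c3 for Gata1 (r = 0.975), Ssx2ip for Gfi1b (r = 0.979), Cldn13 for Klf1 (r = 0.990), Cpox for Sox6 (r = 0.997), Epor for Tal1 (r = 0.976) and Ormdl3 for Zfpm1 (r = 0.969), with Btk again for Lyl1 (r = 0.846).

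Erythroid-like cells were then ordered by the share of their UMIs on the 4 adult globin genes, which rises as red cells mature. Range 1 held cells under 2%, range 2 from 2%, range 3 from 10%, range 4 from 30% and range 5 from 60% upwards. Levels are given in CPM of the UMIs outside these 4 genes (globin-free CPM), since globin itself would dilute every other gene. Ranges were compared by the quasi-likelihood test of edgeR, library as a block, and p-values were adjusted over all genes (Benjamini-Hochberg).

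The test centres each library with TMM (trimmed mean of M values) factors, while the printed levels use globin-free totals alone, and the scales part in globin-rich cells. On totals alone, an alternative chosen after seeing the data, the median log2 fold change of all genes at P3 was -0.21 from range 1 to range 3, -0.185 from range 3 to range 4, -0.57 from range 4 to range 5 and -0.92 from range 3 to range 5, against -0.035, -0.018, -0.044 and -0.126 with TMM. At E16.5 it was -0.165 from range 2 to range 3 and -0.52 from range 3 to range 5, against -0.037 and -0.065. Fold changes below are TMM values, relative to the typical gene, so a member can have a positive fold change and a lower printed level in range 5. Genes passing as higher and as lower on totals alone were 23.7% and 41.6% from range 1 to range 3 at P3, 26.1% and 40.1% from range 3 to range 4, 23.8% and 54.2% from range 4 to range 5, and 22.6% and 61.0% from range 3 to range 5. At E16.5 they were 20.8% and 37.7% from range 2 to range 3 and 17.0% and 54.8% from range 3 to range 5, and for the difference between the stages 15.2% and 30.2%.

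At P3, 8 of the 10 members rose from range 1 to range 3, Bcl11a fell, and Gfi1b did not pass the test. Of all genes tested 63.2% passed (31.3% higher and 31.9% lower), so a member passing the test was no exception, while 8 of 10 passing upwards was above the share of all genes. Of a list of 19 genes known to be bound by GATA1 or KLF1 in red cells, 15 were tested and all 15 rose, with a median log2 fold change of 2.03 against -0.04 over all genes tested. Among them were Alas2, the first enzyme of red cell heme synthesis (log2 fold change 5.64), and Slc4a1 (4.90).

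Sox6 changed most. It measured 11.8, 27.0, 37.2 and 43.1 globin-free CPM in range 1 of libraries A to D and 149, 324, 283 and 328 in range 3. Every library was higher in range 3 and the groups did not overlap. It rose by 3.43 on the log2 scale (SE 0.124, adjusted p = 4.3e-09). Sox6 was higher still in range 5, at 527, 805, 838 and 1051 globin-free CPM, with library A lowest in ranges 1, 3 and 5.

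Nfe2, the partner of the small MAF proteins, measured 40.0, 35.2, 55.4 and 41.5 globin-free CPM in range 1 of libraries A to D, and 382, 437, 626 and 656 in range 5. No value in range 1 came near one in range 5. From range 1 to range 3 it rose by 1.76 ± 0.113 on the log2 scale (adjusted p = 1.18e-07), from range 3 to range 4 by 1.64 ± 0.105 (adjusted p = 1.75e-10) and from range 4 to range 5 by 1.06 ± 0.118 (adjusted p = 1.42e-07).

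Klf1 measured 226, 239, 295 and 295 globin-free CPM in range 1 of libraries A to D, 714, 717, 792 and 850 in range 4, and 328, 303, 393 and 523 in range 5. Range 4 was the highest in each library, and it overlapped with neither of the others. The log2 fold change was 0.97 ± 0.0773 from range 1 to range 3 (adjusted p = 3.1e-07), 0.92 ± 0.102 from range 3 to range 4 (adjusted p = 1.86e-07) and -0.49 ± 0.12 from range 4 to range 5 (adjusted p = 0.00112). That last call was lost without the library block (-0.41, adjusted p = 0.0668).

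Gata1 and its cofactor followed the course of Klf1. Gata1 averaged 144 ± 29.5, 205 ± 37.7, 304 ± 51.0 and 145 ± 37.1 globin-free CPM in ranges 1, 3, 4 and 5 (SD, n = 4). Its range 5 values were 143, 99.2, 190 and 150 in libraries A to D, which overlap with those of range 1. Zfpm1 averaged 289 ± 35.5, 501 ± 106, 892 ± 135 and 411 ± 117 in the same ranges (SD, n = 4). Both rose from range 1 to range 3 and from range 3 to range 4, and both fell from range 4 to range 5, Gata1 by 0.56 and Zfpm1 by 0.62 on the log2 scale (adjusted p = 0.000158 and 0.000188). The last call of Gata1 was lost without the library block (-0.48, adjusted p = 0.0523).

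The TAL1 complex members rose over the same ranges. Tal1 averaged 108 ± 20.9, 222 ± 39.7, 481 ± 73.1 and 265 ± 105 globin-free CPM in ranges 1, 3, 4 and 5 (SD, n = 4), and it fell by 0.40 on the log2 scale from range 4 to range 5 (adjusted p = 0.00868). That last call was lost without library A (-0.38, adjusted p = 0.0621), without library B (-0.17, adjusted p = 0.138), with adult globin genes kept (-0.31, adjusted p = 0.0555) and without the library block (-0.29, adjusted p = 0.293). Lmo2 averaged 164 ± 24.8, 286 ± 39.2, 577 ± 82.2 and 705 ± 119 in these ranges and passed as higher at every step, with 0.81 ± 0.126 at the last (adjusted p = 1.1e-05). Lyl1 averaged 53.1 ± 4.72, 71.9 ± 11.6, 143 ± 24.6 and 91.0 ± 26.3, and its change of -0.15 ± 0.109 from range 4 to range 5 did not pass the test (adjusted p = 0.223).

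Of the repressors, Bcl11a and Gfi1b went other ways, while Sox6 rose as given above. Bcl11a measured 235, 184, 197 and 227 globin-free CPM in range 1 of libraries A to D and 17.7, 15.6, 20.0 and 17.2 in range 5. It was lower in range 5 in all 4 libraries with no overlap. Its log2 fold change was -0.57 ± 0.0914 from range 1 to range 3, -1.20 ± 0.126 from range 3 to range 4 and -0.98 ± 0.223 from range 4 to range 5 (adjusted p = 0.00018, 9.98e-08 and 0.00225). The last of these was -0.55 without library A. Gfi1b averaged 139 ± 9.38, 135 ± 12.1 and 137 ± 36.7 in ranges 1, 3 and 4, where neither step passed the test (adjusted p = 0.124 and 0.193), although the first did without library A (log2 fold change 0.15, adjusted p = 0.0328) and the other without library B (0.27, adjusted p = 0.0474). From the lowest to the middle of 5 equal groups of cells by globin share, Gfi1b fell, by 1.01 on the log2 scale (adjusted p = 0.0282). It then measured 26.0, 22.6, 52.8 and 37.4 in range 5 against 146, 92.8, 181 and 128 in range 4, lower in each library, and fell by 1.49 on the log2 scale (SE 0.123, adjusted p = 1.75e-09).

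In all, 9 members passed the test from range 3 to range 4, 8 higher and Bcl11a lower (background 64.5% of genes, 32.1% higher and 32.4% lower). From range 4 to range 5, 9 passed, with Nfe2, Lmo2 and Sox6 higher and 6 lower (background 68.5%, 34.2% higher and 34.3% lower). Directly from range 3 to range 5, 7 were higher and 2 lower (background 70.6%, 34.3% higher and 36.2% lower), led by Nfe2 (2.80 ± 0.13), Sox6 (2.38 ± 0.131) and Lmo2 (2.09 ± 0.118), with Bcl11a (-2.05 ± 0.159) and Gfi1b (-1.23 ± 0.147) lower. Gata1, at 0.28 ± 0.13, did not pass (adjusted p = 0.0619), but did without library B (0.41, adjusted p = 0.00764), with DESeq2 (0.37, adjusted p = 0.0369), with DESeq2 size factors (0.37, adjusted p = 0.0177) and with adult globin genes kept (0.35, adjusted p = 0.0286). Zfpm1, at 0.49, passed with the library block (adjusted p = 0.00258) but not without it (0.56, adjusted p = 0.0501).

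Scaled by globin-free totals alone, the drop into range 5 was deeper and reached more members. From range 4 to range 5, Gfi1b fell by 2.01, Bcl11a by 1.50, Zfpm1 by 1.15, Gata1 by 1.08, Klf1 by 1.02, Tal1 by 0.92 and Lyl1 by 0.67 on the log2 scale, Nfe2 rose by 0.53, and Sox6 (0.18, adjusted p = 0.258) and Lmo2 (0.28, adjusted p = 0.0725) did not pass. From range 3 to range 5, Nfe2 (2.01), Sox6 (1.59) and Lmo2 (1.30) rose, and Bcl11a (-2.84), Gfi1b (-2.02), Gata1 (-0.51, adjusted p = 0.00118) and Zfpm1 (-0.30, adjusted p = 0.0364) fell. Klf1 (-0.26, adjusted p = 0.0649), Tal1 (0.20) and Lyl1 (0.31) did not pass. Calls from range 3 to range 5 that kept their direction on both scales were thus those of Nfe2, Sox6, Lmo2, Bcl11a and Gfi1b, while Gata1, Klf1 and Zfpm1 turned direction with the scale.

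**Figure D3:**
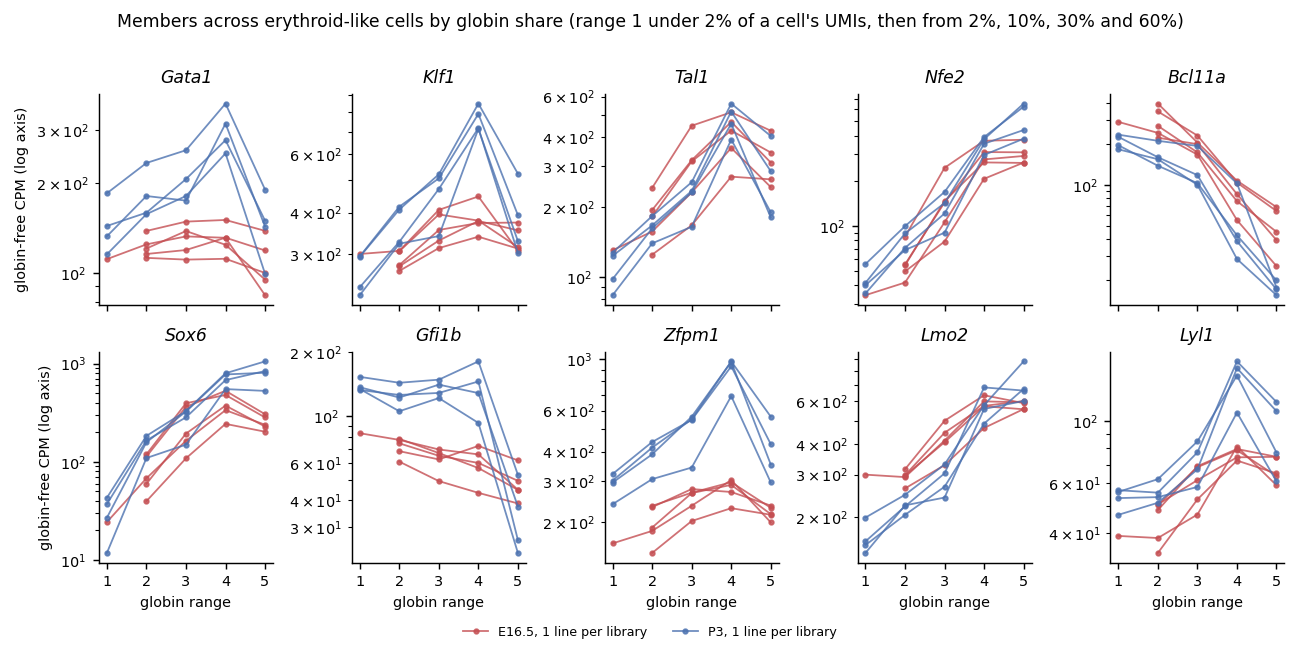
Globin-free CPM of each member (log axis) over globin ranges 1 to 5 of erythroid-like cells, 1 line per library, red for E16.5 and blue for P3. At P3 the means of Sox6, Nfe2 and Lmo2 are highest in range 5 and those of Klf1, Gata1, Zfpm1 and Tal1 in range 4, Bcl11a declines throughout, and Gfi1b drops in range 5.

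These are shares of the RNA outside globin, not amounts per cell. Median depth at P3 was 10470 to 21230 UMIs per cell in range 1 and 2334 to 5213 in range 5. UMIs per cell of Klf1 averaged 4.18, 3.855, 3.13, 2.01 and 0.275 over ranges 1 to 5, and those of Gata1 2.31, 1.96, 1.43, 0.813 and 0.105. Both thus fell at every step, although their globin-free CPM was higher in range 4 than in range 1. Those of Bcl11a averaged 3.41 in range 1 and 0.0130 in range 5. Sox6 averaged 0.442, 1.58, 1.77, 1.80 and 0.576 UMIs per cell over ranges 1 to 5, and Nfe2 0.692, 0.854, 0.877, 0.924 and 0.375. On that scale Sox6 and Nfe2 were highest in range 4, and less RNA per cell and fewer transcripts of a member cannot be told apart in range 5. At E16.5 the UMIs per cell of each member averaged less in range 5 than in range 2.

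Range 5 took 54.6% to 76.3% of the P3 erythroid-like cells, so as an alternative each library's cells were also divided into 5 quintiles of equal size by globin share. The middle quintile of P3 had a median globin share of 64.6% to 84.2% and lay in range 5 by that median, and the comparison of the middle with the top quintile therefore looks within the most globin-rich cells. It turned the direction of 9 members relative to range 3 to range 5: Gata1 fell by 2.03, Klf1 by 2.95, Tal1 by 2.83, Nfe2 by 2.42, Sox6 by 2.97, Zfpm1 by 1.96, Lmo2 by 1.50 and Lyl1 by 1.54 on the log2 scale, and Bcl11a rose by 1.86. All 10 members passed the test there (background 42.4%, 21.7% higher and 20.7% lower). Counts were low: Bcl11a had 73 UMIs in the 6039 cells of the middle quintile and 61 in the 6041 cells of the top one. Its rise is thus one in the share of globin-free RNA, not in UMIs. Gfi1b had 428 and 23 UMIs. Mean levels over quintiles 1 to 5 were 306, 679, 569, 235 and 61.6 globin-free CPM for Klf1 and 79.5, 633, 950, 750 and 113 for Sox6. Nfe2 had 60.6, 326, 605, 510 and 103, and Bcl11a 193, 51.4, 10.4, 20.7 and 29.0. Sox6, Nfe2 and Lmo2 were thus highest in the middle quintile, and Klf1 in the quintile below it.

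Levels of marker genes of other cell types in erythroid-like cells differed with globin share. The summed level of the 11 neutrophil markers in P3 erythroid-like cells averaged 986, 1153, 1478, 2849 and 8702 globin-free CPM over ranges 1 to 5, that of the 9 hepatocyte markers 121 in range 1 and 1776 in range 5, and that of the 9 B cell markers 29.4 and 241. The 9 stem and progenitor markers averaged 115, 49.6, 50.8, 15.4 and 37.4 over ranges 1 to 5, and the 8 endothelial markers 89.8, 44.25, 40.1, 17.5 and 57.9. Both were thus lowest in range 4. Of 12 transcription factors of other blood lineages, 7 were kept by the low-count filter for the test from range 3 to range 5. Of these, 5 were higher and 1 lower (all genes 34.3% and 36.2%), or 5 and 2 on totals alone (22.6% and 61.0%). The higher ones were Ebf1 (log2 fold change 3.81), Cebpa (3.30), Fli1 (3.25), Irf8 (3.19) and Spi1 (3.00). A gene scarce in range 3 can pass that filter through range 5 alone, so the count cannot decide whether the list as a whole was higher. Whether such RNA came from other cells, and the part of RNA from other cells in the members' levels in range 5, was not tested.

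Among partners of the members, 6 of 18 rose and 6 fell from range 1 to range 3 at P3 (all genes 31.3% and 31.9%), with Mafk, a small MAF partner of NFE2, at 1.01 and Cbfa2t3, a corepressor of the TAL1 complex, at -1.45. From range 3 to range 5, 8 rose and 9 fell (all genes 34.3% and 36.2%), or 4 and 12 on totals alone, led upwards by Mafk (2.91) and Mafg (2.70). Among 12 regulators of late red cell maturation, 9 rose and 2 fell from range 1 to range 3, with E2f2 at 2.98 and Tfdp2 at 1.74. Myb, a progenitor factor, was lower in range 3 than in range 1 (-1.31), and Bcl2l1, a survival gene on the target list, was among those higher in range 5 than in range 3 (5.57).

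At E16.5 only Jag1Ndr/Ndr replicate 1 had 50 or more cells in range 1 (72 cells), so the test from range 1 to range 3 could not be fitted and range 2 was compared with range 3, a choice made after the cell numbers were seen. From range 2 to range 3, 8 members rose and Bcl11a fell, while Gfi1b did not pass (background 53.5%, 26.8% higher and 26.8% lower). Sox6 rose by 1.70 ± 0.0818 on the log2 scale (adjusted p = 3.18e-11), Nfe2 by 1.40 ± 0.101 (3.85e-09) and Tal1 by 0.81 ± 0.0742 (7.99e-08), and Bcl11a fell by 0.45 (SE 0.0865, adjusted p = 0.000312), a call lost without the library block (-0.43, adjusted p = 0.0548). In a comparison of the lowest with the middle quintile, 8 rose and Bcl11a fell, by 1.45 (background 61.7%, 29.4% higher and 32.3% lower). Thus 9 of 10 members passed either way, with Gfi1b outside. Gata1, at 0.21 from range 2 to range 3, lost its call without Jag1+/+ replicate 1 (0.19, adjusted p = 0.0637), without the library block (0.24, adjusted p = 0.0963) and on globin-free totals alone (0.0846, adjusted p = 0.272), where Gfi1b fell by 0.20 (adjusted p = 0.0241).

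From range 3 to range 5 at E16.5, 6 members rose and Bcl11a fell (background 56.1%, 28.1% higher and 28.0% lower). Nfe2 averaged 144 ± 62.8 globin-free CPM in range 3 and 301 ± 46.2 in range 5 (SD, n = 5) and rose by 1.61 ± 0.203 on the log2 scale (adjusted p = 0.000496). Bcl11a averaged 196 ± 25.7 and 48.9 ± 18.1, and fell by 1.63 (SE 0.128, adjusted p = 0.000157). Gata1, at 130 ± 14.9 and 107 ± 21.4 globin-free CPM, did not pass the test (log2 fold change 0.17, adjusted p = 0.136), nor did Gfi1b and Zfpm1. Sox6 (0.64, adjusted p = 0.0416) lost its call without Jag1+/+ replicate 1 (0.61, adjusted p = 0.123) or Jag1Ndr/+ replicate 1 (0.48, adjusted p = 0.148), without a low-count filter (0.62, adjusted p = 0.106) and without the library block (0.51, adjusted p = 0.16), and Klf1 (0.34) lost it without Jag1Ndr/+ replicate 1 (0.31, adjusted p = 0.0631). Without Jag1Ndr/Ndr replicate 1, Gata1 (0.27, adjusted p = 0.045) and Zfpm1 (0.30, adjusted p = 0.0311) passed, and Zfpm1 also did without the shared library (0.35, adjusted p = 0.0284), with DESeq2 (0.32, adjusted p = 0.0217), with its size factors (0.32, adjusted p = 0.0265) and with adult globin genes kept (0.29, adjusted p = 0.0475). On globin-free totals alone 4 members passed, with Nfe2 (1.16) and Lmo2 (0.48) higher and Bcl11a (-2.08) and Gfi1b (-0.39, adjusted p = 0.0149) lower. There Tal1 (0.15), Sox6 (0.19) and Lyl1 (0.19) lost their calls, and Gata1 (-0.29, adjusted p = 0.0684), Klf1 (-0.11) and Zfpm1 (-0.18) turned direction, as the means of Gata1 above do. Between the middle and the top quintile, 2 members passed, Bcl11a (-0.35) and Sox6 (-0.50), both lower (background 15.8%, 7.74% higher and 8.11% lower). Over ranges 2 to 5, the highest mean of a member was 6.08 times the lowest for Bcl11a, 5.29 times for Nfe2, 4.90 times for Sox6 and 1.21 times for Gata1. Neutrophil markers averaged 525 in range 2 and 4424 in range 5 at this stage, and hepatocyte markers 571 and 5233, and their part in these levels was not tested.

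The change from range 3 to range 5 differed between the stages for 4 members, by the interaction term (background 42.8%, 21.1% higher and 21.7% lower). Whether these ranges held cells of like maturity at both stages was not tested. The P3 change was the more positive for Sox6 (difference in log2 fold change 1.63 ± 0.299, adjusted p = 0.000668), Nfe2 (1.08 ± 0.262, adjusted p = 0.00453) and Lmo2 (1.04 ± 0.186, adjusted p = 0.000545), and the more negative for Gfi1b (-1.40 ± 0.179, adjusted p = 4.65e-05). Bcl11a missed the threshold, at -0.53 ± 0.211 (adjusted p = 0.0537), but passed without Jag1Ndr/+ replicate 1 (-0.61), Jag1Ndr/Ndr replicate 1 (-0.62) or library C (-0.65), without a low-count filter (-0.60) and on globin-free totals alone (-0.81, adjusted p = 0.0148). Lyl1, at 0.35, passed without Jag1Ndr/Ndr replicate 1 (0.46) or library B (0.50).

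The bounds between ranges cut a continuous measure. Of the erythroid-like cells, 21.8% at E16.5 and 12.8% at P3 lay close to one of the 4 bounds (within 10% of its value), most of them at 60% globin (8446 of 61278 cells and 2774 of 30202).

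Over erythroid-like cells as a whole, 3 members were higher and 3 lower at P3 than at E16.5 (background 52.5%, 27.0% higher and 25.6% lower). Range 1, the deepest cells at P3, held 9.99% to 13.2% of the erythroid-like cells there and at most 0.621% in any E16.5 library. At E16.5 the median globin share in the other classes was 5.90% to 51.0%, above the 2% bound of range 1. Whether range 1 was nearly empty there for lack of early cells was not tested, nor was its part in the stage differences over the whole class. Gfi1b measured 60.7 and 66.0 globin-free CPM in Jag1Ndr/Ndr replicates 1 and 2, 58.2 in Jag1+/+ replicate 1, 44.0 in Jag1Ndr/+ replicate 1 and 60.8 in the shared library, and 115, 112, 143 and 122 in P3 libraries A to D. All P3 libraries were higher, with no overlap. The log2 fold change was 0.96 ± 0.131 (adjusted p = 9.37e-05). Zfpm1 followed, at 236 ± 24.6 (SD, n = 5) and 415 ± 84.5 (SD, n = 4) globin-free CPM, and differed by 0.69 ± 0.151 on the log2 scale (adjusted p = 0.00267). Gata1 averaged 119 ± 16.45 and 175 ± 38.4 and was higher by 0.42 (SE 0.14, adjusted p = 0.031), but its ranges overlapped, since library B at 141 lay below the shared library at 146. The Gata1 call was lost when library C was left out (log2 fold change 0.28, adjusted p = 0.101), and likewise without Jag1+/+ replicate 1, Jag1Ndr/+ replicate 1 or either Jag1Ndr/Ndr replicate at E16.5 (adjusted p = 0.0506 to 0.0703).

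The members that were lower at P3 were the TAL1 complex members Tal1 and Lmo2, and Nfe2. Lmo2 measured 494 and 526 globin-free CPM in Jag1Ndr/Ndr replicates 1 and 2, 505 in Jag1+/+ replicate 1, 468 in Jag1Ndr/+ replicate 1 and 554 in the shared library, and 264, 297, 280 and 360 at P3. The groups did not overlap, and it fell by 0.90 on the log2 scale (SE 0.13, adjusted p = 0.000146). Tal1 averaged 321 ± 91.0 and 192 ± 50.02 and fell by 0.86 (SE 0.204, adjusted p = 0.0043), and Nfe2 averaged 233 ± 43.4 and 155 ± 34.9 and fell by 0.71 (SE 0.16, adjusted p = 0.00305). Klf1 (0.00 ± 0.148), Bcl11a (0.19 ± 0.139), Sox6 (-0.24 ± 0.253) and Lyl1 (-0.02 ± 0.127) did not pass the test. Stage goes with the TrypLE step, the software version and the gene list of the matrices, and these cannot be told apart from age.

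The stage difference depended on the globin range. The median globin share within range 3 was 19.65% to 26.38% in the E16.5 libraries and 17.48% to 19.3% in those of P3. Globin RNA in other classes also differed between the stages, as given above. Whether a range held cells of like maturity at both stages was not tested. In range 3 alone, Gata1 (0.73), Gfi1b (1.18) and Zfpm1 (1.08) were higher at P3 and Lmo2 (-0.48) lower (background 31.6%, 15.4% higher and 16.2% lower). In range 4 alone, 7 members were higher and none passed as lower, among them Zfpm1 (1.81), Gata1 (1.35), Gfi1b (1.32), Klf1 (1.12) and Nfe2 (0.44) (background 58.7%, 28.1% higher and 30.6% lower). In range 5 alone, 7 were higher, led by Sox6 (1.98), Zfpm1 (1.20) and Nfe2 (1.09), and Bcl11a was lower at -1.13 (background 55.1%, 27.7% higher and 27.4% lower). Nfe2, lower at P3 over all erythroid-like cells, was higher there within ranges 4 and 5, and Lmo2 was lower in range 3 and higher in range 5 (0.56). On globin-free totals alone, Zfpm1 stayed higher at P3 in each of the 3 ranges (0.97, 1.62 and 0.82). Gata1 passed in ranges 3 and 4 (0.62 and 1.16) and not in range 5 (0.36, adjusted p = 0.142), and the calls of Nfe2 in range 4 (0.24), and of Klf1 (0.14), Lmo2 (0.19) and Lyl1 (0.35) in range 5, were lost. Bcl11a in range 3 (-0.64, adjusted p = 0.0318) and Gfi1b in range 5 (-0.56, adjusted p = 0.0462) passed as lower there. Genes higher and lower at P3 on that scale numbered 1119 and 1825 in range 3, 1993 and 3631 in range 4, and 1726 and 4072 in range 5.

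**Figure D4:**
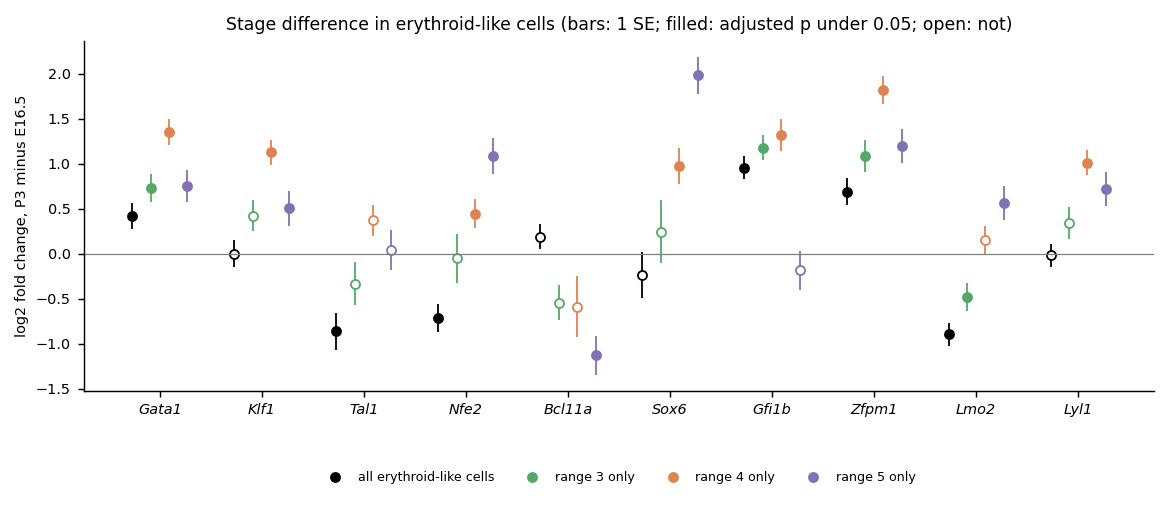
Log2 fold change of each member between the stages (above 0: higher at P3) over all erythroid-like cells (black) and within range 3 (green), range 4 (orange) or range 5 (purple), with bars of 1 SE, filled where the adjusted p was under 0.05. Gata1 and Zfpm1 are above 0 in all 4 fits, and Nfe2 and Lmo2 lie below 0 over all cells and above 0 in ranges 4 and 5, where Lmo2 in range 4 turns to -0.0537 on globin-free totals alone.

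Known targets of GATA1 or KLF1, over the whole erythroid-like class, were lower at P3 in 13 of 18 tested and higher in none, with a median log2 fold change of -1.23 against 0.03 over all genes, and in 9 of 15 on totals without the globin genes. Epor, the erythropoietin receptor, was at -1.60. The targets were not compared within ranges. The 13 erythroid markers, some of them also targets, summed to 20650 globin-free CPM at E16.5 and 11490 at P3 over the class. Within ranges these sums were 5766 and 7096 (range 2), 14380 and 10980 (range 3), 23730 and 24700 (range 4), and 26420 and 35460 (range 5). Among partners 4 of 18 were higher and 4 lower, near the 27.0% and 25.6% of all genes, with Hdac1 at 1.09, Ldb1, the protein that LMO2 binds, at -1.08 and Cbfa2t3 at 0.99. Hepatocyte markers in erythroid-like cells summed to 3765 globin-free CPM at E16.5 and 406 at P3, neutrophil markers to 3170 and 2261 and B cell markers to 114 and 64.1. Other lists were higher at P3, among them macrophage markers (72.3 and 158.8), dendritic markers (7.10 and 41.5) and stem and progenitor markers (56.05 and 77.4). The part of these in the stage differences was not tested.

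In megakaryocyte-like cells, 9 of 10 members passed between the stages (background 40.0%, 19.9% higher and 20.1% lower). Nfe2 (0.94 ± 0.191), Gata1 (0.81 ± 0.205), Lyl1 (0.80 ± 0.156), Gfi1b (0.74 ± 0.162) and Zfpm1 (0.56 ± 0.14) were higher at P3, and Tal1 did not pass (-0.17 ± 0.15). Klf1 was lower by 2.15 on the log2 scale, Sox6 by 1.57, Bcl11a by 1.17 and Lmo2 by 1.08, with a change of -2.15 ± 0.246 for Klf1 (adjusted p = 5.66e-06). Klf1 measured 58.0, 50.3, 65.4, 56.6 and 54.3 CPM in these cells of Jag1+/+ replicate 1, of the shared library, of Jag1Ndr/+ replicate 1 and of Jag1Ndr/Ndr replicates 1 and 2, and 11.1, 16.6, 17.2 and 22.0 CPM in P3 libraries A to D, so the groups were far apart. The median globin share of the same cells was 25.3% to 50.8% in the E16.5 libraries and 0.401% to 0.524% in those of P3, and the part of erythroid RNA in these differences was not tested.

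No member passed the test of Jag1Ndr/Ndr against the other E16.5 libraries. Over 10 members and 10 classes, 0 of 100 pairs passed after Benjamini-Hochberg adjustment in edgeR, and 6 pairs had an unadjusted p under 0.05. Over all genes and classes 0.000907% passed (0% higher and 0.000907% lower), that is 1 of 110293 pairs, and 1837 had an unadjusted p under 0.05. In erythroid-like cells 0% of 13520 genes passed in either direction (0% higher, 0% lower).

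Gata1 in erythroid-like cells measured 108 and 123 globin-free CPM in Jag1Ndr/Ndr replicates 1 and 2, and 114, 106 and 146 in replicate 1 of Jag1+/+, replicate 1 of Jag1Ndr/+ and the shared library. The homozygous values lay within the others. Its log2 fold change was -0.05 ± 0.187. Klf1 measured 344 and 319 globin-free CPM against 339, 359 and 348 in the same order of libraries, with a log2 fold change of -0.06 ± 0.207. The largest differences in this class were 0.25 ± 0.185 for Gfi1b, 0.21 ± 0.345 for Sox6 and -0.19 ± 0.188 for Lyl1, all with an adjusted p of 1. Of the 100 pairs, 34 were higher and 66 lower in homozygous libraries. The pairs with an unadjusted p under 0.05 were Bcl11a in endothelial-like (0.67) and hepatocyte-like cells (0.48), Sox6 in megakaryocyte-like cells (0.72), and Gata1 (-0.48), Klf1 (-0.46) and Nfe2 (-0.36) in monocyte-like cells. The shared library carries both a wild-type and a heterozygous label.

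**Figure D5:**
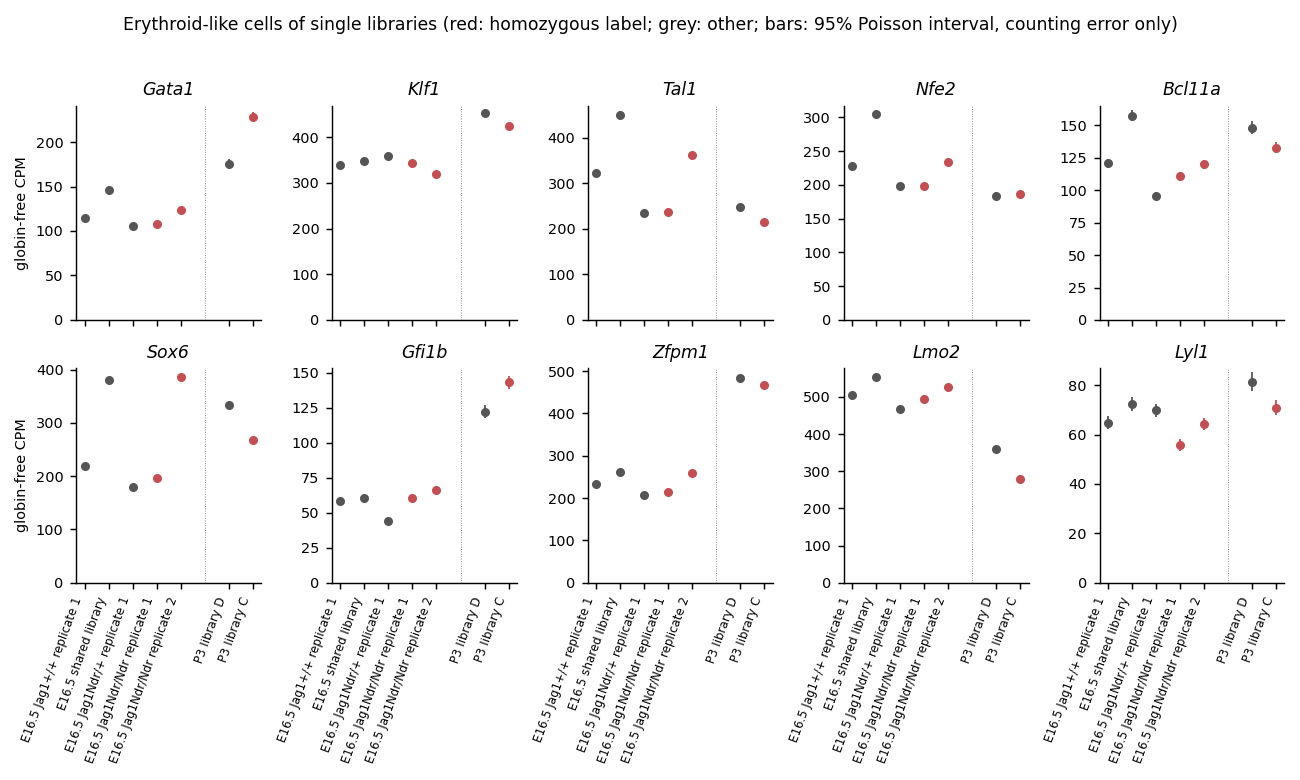
Globin-free CPM of each member in erythroid-like cells of the 5 E16.5 libraries and of P3 libraries D and C, red where the label is homozygous and grey otherwise, with 95% Poisson intervals that cover counting error only. The homozygous E16.5 libraries fall among the other 3 for Gata1, and no member passes the genotype test at E16.5.

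At P3 the only libraries with a single genotype label were C, homozygous, and D, heterozygous, which gives 1 library each and no test. Gata1 in erythroid-like cells was 141 CPM in library C (95% exact Poisson interval 138 to 145) and 110 in library D (107 to 114). Gfi1b was also higher in library C, at 88.5 against 76.7 CPM. The other 7 members outside Nfe2 were lower in it, among them Lmo2 at 174 against 226 CPM, Sox6 at 166 against 210 and Klf1 at 262 against 285. Nfe2 had overlapping intervals, and on the globin-free scale so did Zfpm1, which leaves 6 lower. These intervals cover counting error only and say nothing of the spread between animals, and the difference between C and D is that of 2 libraries.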

How the data were processed

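The deposited matrices hold UMI counts that the authors left unnormalised, by gene and barcode. Per the submitters' processing notes they used Cell Ranger 2.1.1 with mm10, while the file headers give software version 3.1.0 at E16.5 and 3.0.2 at P3. Gene symbols and identifiers came from the deposited lists. The counting of overlapping or antisense genes is not given in the sources used here.

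The members, the lists and the tests were chosen with earlier results of these data known. All 10 members are named, and of each other list at most 6 genes per comparison, those called with the largest change. Scrublet, run on each library through scanpy 1.11.5, called doublets and marked 3.67% to 31.8% of barcodes. For Jag1Ndr/Ndr replicate 1 at E16.5 the automatic threshold marked 0, and the top 5% of scores were removed instead. Cells of each stage were clustered with the Leiden method (resolution 1, 2000 variable genes, 30 components, 15 neighbours, igraph 0.11.9). Counts were summed per library and class (at least 20 cells) or range (at least 50 cells) and tested with edgeR 4.0.16 in R 4.3.3 after TMM scaling, with calls at an adjusted p under 0.05. DESeq2 1.42.0 and totals without TMM factors were alternatives. The steps were tested on simulated data with 200 changed genes. Of changes of 1 on the log2 scale, the genotype fit recovered 75.0%, the stage fit 97.0% and the P3 fit from range 1 to range 3 97.0%. Unchanged genes called numbered 11, 6 and 15. The simulated counts had a fixed spread per fit and no deviations common to libraries, and p-values were adjusted over erythroid-like cells alone, so recovery in the data may differ. Promoter sequences are from RefSeq (GRCm38.p6), which matched 8 of the 10 members.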

Additional observations from a re-analysis of the deposited data

Results flagged for a closer look

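Library A stood apart from the other 3 P3 libraries for Zfpm1, the cofactor of GATA1, in 2 globin ranges of erythroid-like cells. In range 3 it measured 342.0 globin-free CPM, while libraries B to D lay between 547.4 and 564.7. In range 4 it measured 692.2, and the others lay between 928.5 and 975.0. The gap to the nearest library took up 0.922 and 0.836 of the whole range, above Dixon's critical value for 4 libraries. These were 2 of 110 groups of libraries looked at, and chance alone marks about 1 group in 20.

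The change from range 3 to range 5 differed between P3 and E16.5 for 4 members by the interaction term in edgeR's quasi-likelihood fit (Benjamini-Hochberg adjusted), which 42.8% of all genes tested also passed. The difference in log2 fold change was 1.63 for Sox6, 1.08 for Nfe2 and 1.04 for Lmo2 (adjusted p = 0.000668, 0.00453 and 0.000545). For Gfi1b, the repressor that works with KDM1A, it was -1.40 (adjusted p = 4.65e-05). Within-stage values stand above.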

How the results depend on the processing

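Across all alternatives, 130 counts stayed within 1.5 times the reported count and 5 moved. Of the members' fold changes, 1122 kept direction and call, 37 lost the call, 24 gained it and 97 turned direction, and the cause was not tested. The counts that moved were 2 members called from range 3 to range 5 at E16.5 with quintiles in place of ranges and 4 on globin-free totals without TMM, 1 (coarser clustering) and 6 (globin-free scale) members highest in erythroid-like cells at E16.5, and 5 (globin-free scale) at P3. With 1 library left out at a time, called members numbered 0 between genotypes, 5 to 6 between stages, 8 to 9 and 5 to 9 for the E16.5 steps from range 2 to range 3 and from range 3 to range 5, 9 to 10, 9 to 10, 8 to 9 and 9 to 10 for the P3 steps in the order given above, and 4 to 6 for the interaction. Few cells limit the megakaryocyte-like class, and few UMIs of each member per cell limit range 5.

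The replicate block left 0 of 100 pairs called between genotypes. Same-numbered libraries deviated together (r = 0.608 over 11895 genes). There were only 2 numbers and the labels name no shared batch, so whether these libraries share more than a number cannot be told. The main genotype test had no replicate block.

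Genotype differences, none called, turned in sign as follows. With 1 library left out they ran from -0.10 to 0.0453 for Gata1, -0.13 to 0.0495 for Klf1, -0.42 to 0.15 for Tal1, -0.16 to 0.0445 for Bcl11a, -0.31 to 0.62 for Sox6 and -0.0524 to 0.18 for Zfpm1. Summing all passing barcodes gave -0.0217 for Zfpm1 and -0.0645 for Lmo2, which was -0.0084 with doublets kept and -0.0020 with the top 10% of doublet scores removed.

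Between stages, Klf1 turned to -0.026 with DESeq2 and with its size factors, -0.0232 with doublets kept, -0.0013 at 2000 UMIs, -0.0153 with the top 10% of doublet scores removed and -0.0148 without adult globin genes, and ran from -0.0778 to 0.10 with a library left out. Lyl1 turned to 0.0132 without a filter and ran from -0.0715 to 0.0637. Within ranges 3, 4 and 5 in turn, Lyl1 was 0.34, 1.01 and 0.72, Sox6 0.24, 0.97 and 1.98, and Bcl11a -0.55, -0.59 and -1.13. Within ranges 4 and 5, Tal1 was 0.37 and 0.0408, Nfe2 0.44 and 1.09, and Lmo2 0.15 and 0.56, and Gfi1b in range 5 was -0.18.

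Quintiles turned the E16.5 change from range 3 to range 5 to -0.0087 for Gata1, -0.0353 for Klf1, -0.13 for Tal1, -0.0338 for Nfe2, -0.50 for Sox6, -0.0366 for Gfi1b and -0.0086 for Zfpm1. At P3 they gave -1.01 for Gfi1b from range 1 to range 3, and from range 3 to range 5 -2.03 for Gata1, -2.95 for Klf1, -2.83 for Tal1, -2.42 for Nfe2, 1.86 for Bcl11a, -2.97 for Sox6, -1.96 for Zfpm1, -1.50 for Lmo2 and -1.54 for Lyl1. Lyl1 from range 4 to range 5 ran from -0.18 to 0.0193. In the interaction, Gata1 was -0.0611 without a filter and ran from -0.10 to 0.13, Klf1 from -0.0277 to 0.21 and Zfpm1 from -0.0033 to 0.24. On globin-free totals without TMM, the stage difference of Lyl1 was 0.0565. Within ranges 3, 4 and 5 it was 0.2319, 0.8169 and 0.3464 for Lyl1 and 0.1096, 0.7662 and 1.5962 for Sox6, within ranges 3 and 4 it was -0.6354 and -0.7805 for Bcl11a, in range 4 it was 0.1685 for Tal1, and in range 5 -0.5562 for Gfi1b, 0.194 for Lmo2, -1.5447 for Bcl11a and 0.7157 for Nfe2. From range 3 to range 5 totals gave -0.2894 for Gata1, -0.1129 for Klf1, -0.3927 for Gfi1b and -0.1798 for Zfpm1 at E16.5, and -0.5101 for Gata1, -0.2618 for Klf1 and -0.2996 for Zfpm1 at P3. Gfi1b at P3 was -0.0476 from range 1 to range 3 and -0.005 from range 3 to range 4, and in the interaction Gata1 was -0.2704, Klf1 -0.1984 and Zfpm1 -0.1692. The planned step from range 1 to range 3 at E16.5, and the stage fit in range 1, could not be fitted.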
